A study of Homo sapiens with 4 samples.

Results

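The collagen gene family was taken as every gene whose symbol has the form COL, a number, A and a number, which gave 44 of the 58870 genes listed for each library. Of these, 11 encode fibrillar collagens, 6 the type IV chains of basement membranes, 10 the fibril-associated collagens with interrupted helices (FACIT), and 17 other collagens, among them the beaded filament type VI, the short-chain type VIII, the anchoring fibril type VII, the multiplexins XV and XVIII and the transmembrane collagens. The rule reads gene symbols only.

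Collagens are secreted as procollagen chains that are hydroxylated and folded into a helix of chains in the endoplasmic reticulum, exported, trimmed at their ends and cross-linked by lysyl oxidases. Dermal fibroblasts are the main source of the fibrils of types I, III and V that give skin its strength. FACIT collagens decorate those fibrils, type IV chains form the sheet under epithelia and around vessels, and type VI links cells to the fibril network.

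Total RNA was sequenced from BJ, an established line of human foreskin fibroblasts, with 2 libraries from Dox-treated cells and 2 from DMSO-treated cells. Dox libraries came from cells given 250 nM Dox for 24 hours and then kept for 10 days, as the series design words it, and their titles call them aged. The treatment text of the samples can be read with the 10 days first. DMSO libraries, titled young, came from cells given DMSO, a common drug solvent, over the same times. The labels do not spell out Dox, and both groups are 1 cell line; whether the replicates came from separate cultures is not said in any label. The p-values therefore cover the spread among these libraries alone, and that spread may be technical. In bulk RNA of this kind, fewer cells making a transcript and less transcript per cell cannot be told apart.

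Total expected counts, the fragments assigned to genes by the quantifier, lay between 42744729 and 47798920 per library. The 44 collagens took 3.01% and 3.93% of these counts in Dox replicates 1 and 2, against 4.40% and 4.35% in DMSO replicates 1 and 2. The Dox libraries differed from each other far more than the DMSO libraries did, with a chi-square per degree of freedom over genes of 60.5 in the Dox pair and 2.40 in the DMSO pair. Of 9 fibroblast markers, 8 reached a mean of 1 TPM, the unit of transcript level corrected for length, 1 of 5 keratinocyte markers did (KRT10), and none of 5 endothelial, 5 melanocyte or 6 chondrocyte markers did. Smooth muscle and pericyte markers, which fibroblasts also express in part, summed to 282 and 322 CPM (counts scaled to library size) in Dox libraries, against 1001 and 1010 CPM in DMSO libraries, and immune markers to 26.1 and 28.1 CPM in Dox libraries, against 6.28 and 5.82 CPM in DMSO libraries. Of the 6 smooth muscle and pericyte markers 3 reached 1 TPM (ACTA2, CNN1 and CSPG4), and of the 5 immune markers 1 did (CD68). ACTA2 was the largest part of each smooth muscle and pericyte sum, with 152 and 159 CPM in Dox libraries, against 769 and 783 CPM in DMSO libraries. CNN1, MYH11, RGS5 and DES were lower in Dox libraries as well. CSPG4 overlapped between the groups, with 75.8 and 97.7 CPM in Dox libraries, against 78.2 and 73.8 CPM in DMSO libraries. The leukocyte marker PTPRC had 90 and 83 counts in Dox libraries, against 9 and 11 in DMSO libraries, and the T cell marker CD3E had 0 in all 4. The part of those cell types in the collagen values was not tested. Fibroblast markers did not move as a group. PDGFRA had 93.4 and 93.1 CPM in Dox libraries, against 174 and 170 CPM in DMSO libraries. PDGFRB had 203 and 247 CPM in Dox libraries, against 470 and 462 CPM in DMSO libraries. THY1, DCN, LUM, VIM and S100A4 were higher in Dox libraries, and FAP and PDPN overlapped between the groups.

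Levels between libraries are given as CPM scaled by the trimmed mean of M-values, and levels between genes as TPM, which is divided by transcript length. Of the 44 collagens, 35 had enough counts to be tested, 28 of them in both groups. COL4A6, COL10A1, COL17A1, COL25A1 and COL28A1 passed that filter only through the Dox libraries, where they were higher, and COL19A1 and COL21A1 only through the DMSO libraries. With an adjusted p threshold of 0.05, 10 of the 35 were higher in Dox, 11 were lower and 14 did not pass, and 4 of the 10 higher were among those that entered only through the Dox libraries. Over all 16749 genes tested, 30.3% passed, 16.5% higher and 13.8% lower. The 22 collagens with a mean of at least 1 TPM all met the filter in both groups. Of these 22, COL8A1 and COL13A1 rose, 10 fell and 10 did not pass, while among all 9752 tested genes at that level 33.9% passed, 16.8% higher and 17.1% lower. In 16 of the 22 (72.7%), the Dox and DMSO libraries did not overlap in CPM, about the share found among all tested genes at that level (72.3%). The median log2 fold change of the 22 was -0.37. Over all genes tested, at any level, it was -0.00, and over all those of at least 1 TPM it was not computed. Of the 13 tested collagens under 1 TPM, 8 were higher, 1 was lower and 4 did not pass. Since 5 of the 13 could enter the test only by being high in Dox, this tally does not show a direction of the low collagens.

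**Figure D1:**
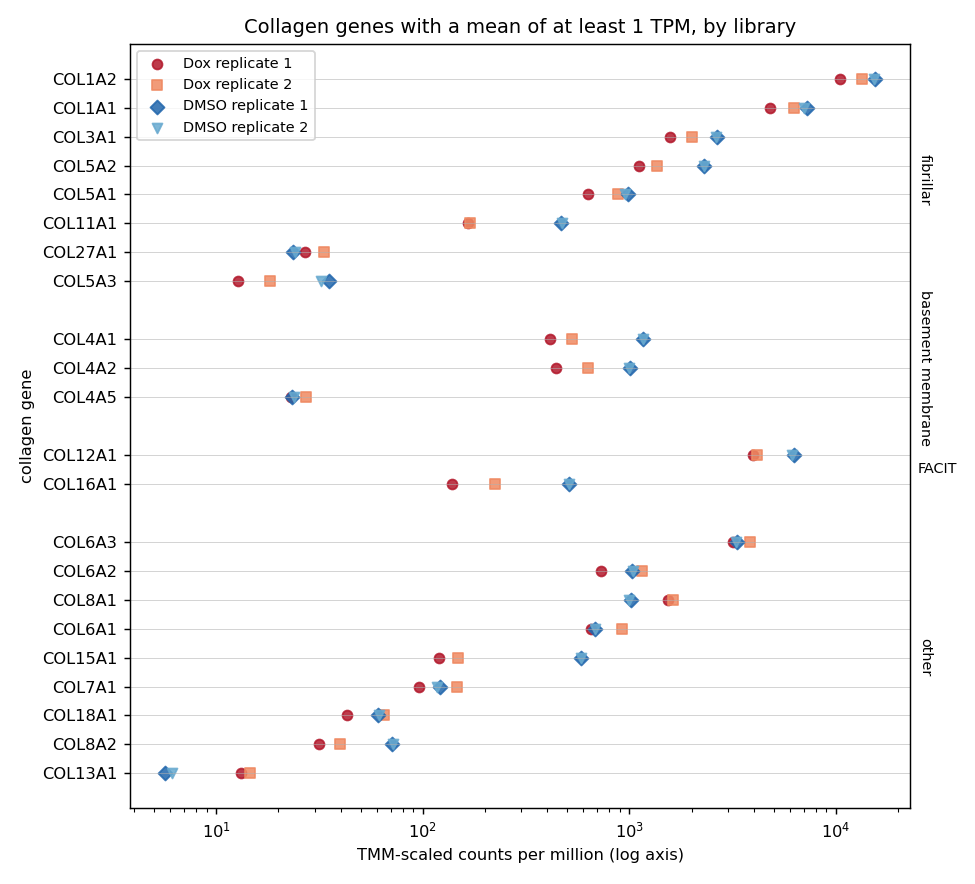
TMM-scaled CPM (log axis) of the 22 collagen genes with a mean of at least 1 TPM, by class, with a point for each of 2 Dox and 2 DMSO libraries. The DMSO points nearly coincide, Dox replicate 1 lies below Dox replicate 2 for all 22 genes, and COL15A1 has both Dox points (119.7 and 148) far below both DMSO points (581 and 581).

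By class, 1 of the 11 fibrillar genes was higher, 4 were lower, 5 did not pass and 1 was not tested. Of the 6 basement membrane genes, 3 were higher, 2 were lower and 1 did not pass. Of the 10 FACIT genes, 1 was higher, 2 were lower, 2 did not pass and 5 were not tested. The other 17 genes held 5 that were higher, 3 that were lower, 6 that did not pass and 3 that were not tested. Among the higher calls, COL4A6 of the basement membrane class and COL10A1, COL17A1 and COL28A1 of the others entered only through the Dox libraries. Over all genes tested 16.5% were higher and 13.8% lower, and these class counts do not show a direction of a class.

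**Figure D2:**
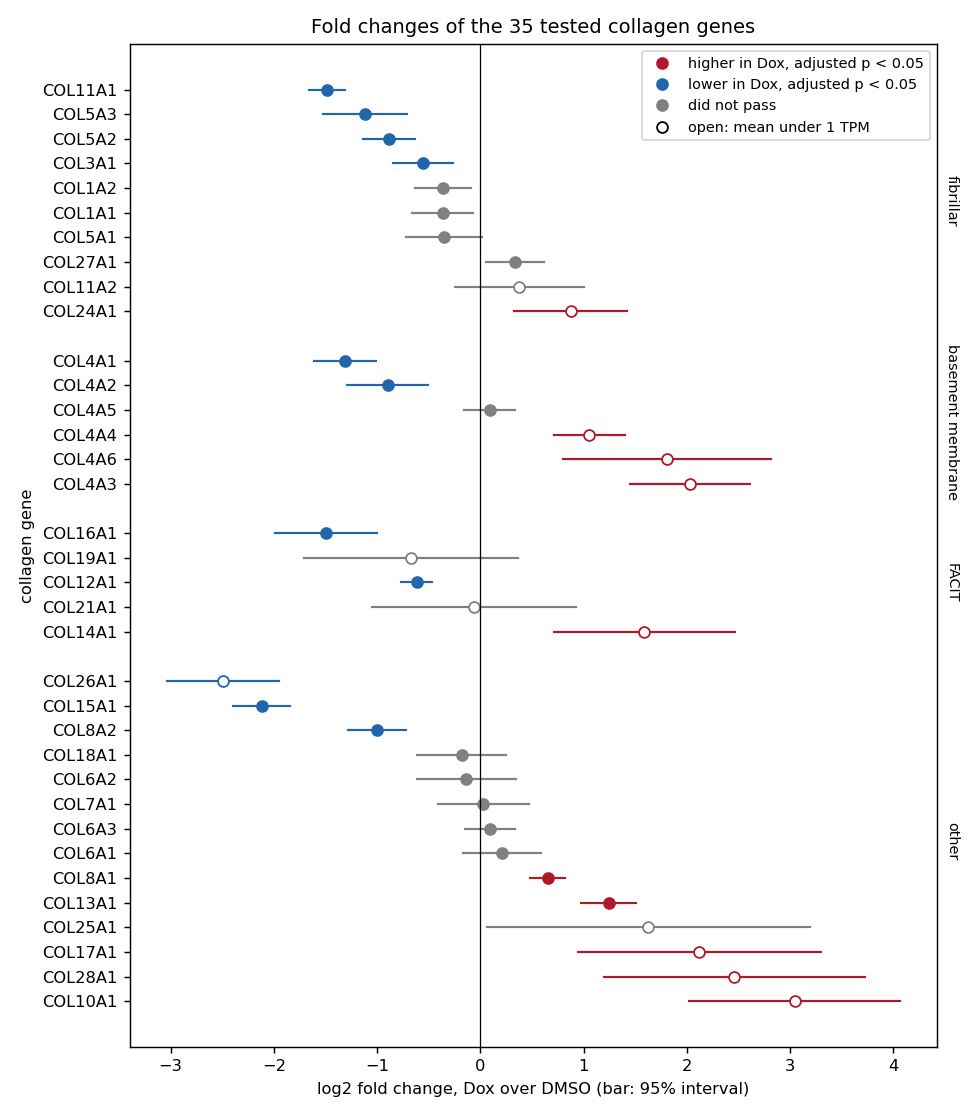
Log2 fold changes, Dox over DMSO, of the 35 tested collagen genes by class, with 95% intervals as bars; filled points are genes with a mean of at least 1 TPM and open points genes below it. Fibrillar and basement membrane genes at or above 1 TPM lie at or left of 0 except COL27A1 and COL4A5. Among the open points, COL10A1 lies farthest right, at 3.04, and COL26A1 farthest left, at -2.49. COL10A1 entered the test only through the Dox libraries, and a gene on the opposite strand overlaps it, so its place is uncertain.

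The type I chains were the most abundant collagen transcripts. COL1A2 (ENSG00000164692.17, GENCODE 29 on GRCh38, chr7:94394561-94431232, plus strand) had 624 and 1193 TPM in Dox libraries, against 983 and 1016 TPM in DMSO libraries, which made it the first of the collagens in every library. Its scaled counts were 10486 and 13349 CPM in Dox libraries and 15419.8 and 15281 CPM in DMSO libraries. COL1A1 (chr17:50183289-50201632, minus strand) came second in every library, with 4814 and 6256 CPM in Dox libraries and 7272 and 6985 CPM in DMSO libraries. In CPM both Dox libraries lay below both DMSO libraries for each chain, whereas in TPM Dox replicate 2 was the highest of the 4. The log2 fold change was -0.37 for COL1A2 (SE 0.11, 95% interval -0.64 to -0.095, adjusted p = 0.0517) and -0.36 for COL1A1 (SE 0.12, 95% interval -0.66 to -0.07, adjusted p = 0.0666), so neither passed. With an offset for transcript GC content, both passed as lower (adjusted p = 0.0285 for COL1A2 and 0.00134 for COL1A1), and over all alternatives their adjusted p reached 1.0, under limma on TPM. The share of all genes passing with that offset was not counted, so passes gained with it cannot be set against it.

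COL3A1 encodes the chain of type III collagen, which runs with type I in skin and vessel walls and whose mutation causes vascular Ehlers-Danlos syndrome. It had 1568 and 2019.9 CPM in Dox libraries, against 2649.7 and 2628 CPM in DMSO libraries. COL3A1 fell, with a log2 fold change of -0.56 (SE 0.12, adjusted p = 0.0171), and the groups did not overlap in CPM. In TPM they did, at 74.5 and 153 in Dox libraries, against 140 and 143 in DMSO libraries. Type V chains seed type I fibrils and limit their width. COL5A2 had 1119 and 1367 CPM in Dox libraries and 2294 and 2286 CPM in DMSO libraries, and it fell by 0.88 on the log2 scale (SE 0.10, adjusted p = 0.00194). Its partner COL5A1 had 630.2 and 882 CPM in Dox libraries and 985 and 951 CPM in DMSO libraries, a log2 fold change of -0.36 (SE 0.15, 95% interval -0.72 to 0.01, adjusted p = 0.127) that did not pass. COL5A3, a rarer type V chain, had 12.8 and 18.3 CPM in Dox libraries and 35.3 and 32.3 CPM in DMSO libraries, and fell by 1.12 (SE 0.17, adjusted p = 0.00466). The fitted fold changes of the type V genes thus ran from -1.12 to -0.36. In CPM the groups did not overlap for any of them, as for 72.3% of all tested genes of at least 1 TPM. In TPM those of COL5A1 overlapped, at 25.9 and 57.9 in Dox libraries, against 49.0 and 47.3 in DMSO libraries. COL3A1 (chr2:188974320-189012746, plus strand) and COL5A2 (chr2:189031896-189225312, minus strand) lie tail to tail, 19149 bases apart, and both fell.

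COL11A1 encodes a type XI chain, best known from the thin fibrils of cartilage and from Stickler syndrome, and type XI chains can pair with those of type V. It had 166 and 169 CPM in Dox libraries, against 469 and 469.9 CPM in DMSO libraries. The log2 fold change of -1.49 (SE 0.07, adjusted p = 0.000107) was the largest fall of a fibrillar collagen, and the Dox libraries differed little from each other. The gene lies on chr1:102876467-103108872 (minus strand). The RefSeq sequence before its start (GRCh38.p14, chr1:103108523-103108772, minus strand) is shown because of the size of that fall, 5′ to 3′, with capitals marking the letters of the GC box (GGGCGG, or CCGCCC on the other strand), the CCAAT box (CCAAT or ATTGG) and the TATA box (TATAAA or TTTATA), which were searched on both strands with overlaps allowed.
COL11A1: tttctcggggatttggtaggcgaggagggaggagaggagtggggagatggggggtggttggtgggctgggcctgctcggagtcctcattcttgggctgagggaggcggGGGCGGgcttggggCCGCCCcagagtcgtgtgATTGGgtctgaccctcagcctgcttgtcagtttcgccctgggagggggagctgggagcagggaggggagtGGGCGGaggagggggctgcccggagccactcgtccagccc
That window of 250 bases held 3 GC boxes and 1 CCAAT box. Such windows were at hand for 32 of the 44 collagens, 44 windows in all. GC boxes were found in 54.5% of those windows and in 42.6% of all 35116 windows in the table, CCAAT boxes in 27.3% and 32.0%, and TATA boxes in 18.2% and 10.7%. These matches describe letters only. RefSeq and GENCODE 29 place starts differently: the COL11A1 and COL15A1 windows precede the RefSeq start but lie within the GENCODE span of the gene. The sequence shown between the COL4A1 and COL4A2 starts lies within the GENCODE span of COL4A2, and in part within that of COL4A1. The COL4A3 window overlaps the GENCODE spans of COL4A3 and COL4A4 in part, and the COL13A1 window overlaps that of COL13A1 in part.

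The remaining fibrillar genes were low. COL27A1, a cartilage fibrillar collagen, had 26.9 and 33.2 CPM in Dox libraries and 23.4 and 24.2 CPM in DMSO libraries, a log2 fold change of 0.34 (SE 0.12, adjusted p = 0.0731) that did not pass. It passed as higher with the GC offset (adjusted p = 0.00355, over the alternatives up to 1.0). COL24A1, known from bone, had counts of 90 and 72 in Dox libraries and 42 and 47 in DMSO libraries and rose by 0.87 (SE 0.23, adjusted p = 0.0304), a call lost when either DMSO library was left out. COL11A2 had counts of 31 and 39 in Dox libraries and 26 and 28 in DMSO libraries and did not pass (adjusted p = 0.310). COL2A1, the main collagen of cartilage, was not tested, with counts of 8 and 11 in Dox libraries and 0 and 2 in DMSO libraries.

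Among the basement membrane genes, the abundant chains COL4A1 and COL4A2 fell, and the rare chains COL4A3 and COL4A4 rose. COL4A6 was called higher too, but it entered the test only through the Dox libraries. COL4A1 (chr13:110148963-110307233, minus strand) and COL4A2 (chr13:110305812-110513209, plus strand) encode the chains found in nearly every basement membrane and lie head to head. COL4A1 had 412 and 529.6 CPM in Dox libraries, against 1171 and 1167 CPM in DMSO libraries. It fell by 1.31 on the log2 scale (SE 0.12, adjusted p = 0.000894), a level 2.48-fold higher in DMSO. COL4A2 had 439.7 and 633 CPM in Dox libraries and 1005 and 991 CPM in DMSO libraries, and fell by 0.90 (SE 0.16, adjusted p = 0.00933). Neither gene's groups overlapped. The annotated spans share 1422 bases, and whether counting used strand is not given in the sources used here, so reads from the shared stretch may belong to either gene. The sequence between their RefSeq starts is shown because both genes start from it and fell together (GRCh38.p14, chr13:110307158-110307283, plus strand, toward COL4A2, capitals as above).
COL4A1-COL4A2: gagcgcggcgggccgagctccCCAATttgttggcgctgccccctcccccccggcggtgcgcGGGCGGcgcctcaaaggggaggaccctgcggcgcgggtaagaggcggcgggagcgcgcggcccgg
The 126 bases hold 1 CCAAT box and 1 GC box.

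COL4A3, COL4A4 and COL4A5 form the collagen of the glomerular basement membrane and are mutated in Alport syndrome. COL4A3 had counts of 67 and 80 in Dox libraries, against 16 and 20 in DMSO libraries, and COL4A4 had counts of 300 and 374 in Dox libraries, against 154 and 171 in DMSO libraries. COL4A3 rose by 2.03 (SE 0.24, adjusted p = 0.00194) and COL4A4 by 1.06 (SE 0.14, adjusted p = 0.00311), with no overlap of the groups for either. Both stayed below 1 TPM in all 4 libraries, COL4A4 at 0.11 to 0.33 TPM and COL4A3 at 0.03 to 0.14 TPM. They too lie head to head, on chromosome 2, 111 bases apart in GENCODE 29, and the sequence before the COL4A3 start is shown because both genes rose (RefSeq GRCh38.p14, chr2:227164374-227164623, plus strand, capitals as above).
COL4A3: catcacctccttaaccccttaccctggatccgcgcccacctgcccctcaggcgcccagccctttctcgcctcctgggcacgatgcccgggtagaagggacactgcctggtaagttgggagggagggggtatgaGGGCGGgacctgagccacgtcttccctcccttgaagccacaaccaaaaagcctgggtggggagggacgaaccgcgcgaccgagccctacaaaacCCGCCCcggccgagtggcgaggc
It holds 2 GC boxes. The RefSeq starts of COL4A3 and COL4A4 lie 418 bases apart, so these 250 bases do not reach the COL4A4 start. An antisense gene overlapping COL4A3, AC097662.1, had a mean count 0.508 times that of COL4A3, so part of either value may be reads of the other.

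COL4A5 and COL4A6 form another such pair on the X chromosome, 346 bases apart. COL4A5 had 23.1 and 27.1 CPM in Dox libraries and 23.3 and 23.9 CPM in DMSO libraries, which overlapped, and did not pass (log2 fold change 0.09, SE 0.10, adjusted p = 0.542). COL4A6 had counts of 16 and 16 in Dox libraries and 5 and 4 in DMSO libraries and rose by 1.81 (SE 0.42, adjusted p = 0.0213), a call lost when either DMSO library was left out. At these counts its size is poorly fixed, with a 95% interval of 0.80 to 2.82. COL4A6 entered the test only through the Dox libraries, so this rise does not show a direction.

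Of the FACIT collagens, COL12A1 and COL16A1 were abundant, and both fell. COL12A1 encodes the collagen that coats type I fibrils in tendon and skin and had rank 3 of the family in every library. It had 3983 and 4128 CPM in Dox libraries, against 6289.5 and 6146 CPM in DMSO libraries, and fell by 0.62 (SE 0.06, adjusted p = 0.00108). The Dox libraries were close to each other and both well below the DMSO libraries. COL16A1, found near the dermal-epidermal junction, had 139 and 223 CPM in Dox libraries, against 509 and 511 CPM in DMSO libraries. It fell by 1.49 (SE 0.21, adjusted p = 0.00345), with Dox replicate 1 the lowest library. COL14A1, which also binds type I fibrils, had counts of 45 and 72 in Dox libraries and 13 and 26 in DMSO libraries and rose by 1.59 (SE 0.36, adjusted p = 0.0203). In TPM the COL14A1 groups overlapped, at 0.04 and 0.16 in Dox libraries, against 0.03 and 0.05 in DMSO libraries. COL19A1 and COL21A1 did not pass, and counts of COL19A1 are uncertain because LMBRD1 overlaps it on the opposite strand with 94.9 times its count. COL9A1, COL9A2, COL9A3, COL20A1 and COL22A1 were not tested, with at most 10 counts in any library. COL20A1 had 0 counts in all 4 libraries, where 3 counts, the limit that a count of 0 allows, are at most 0.0719 CPM.

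Type VI collagen is built from the chains of COL6A1, COL6A2 and COL6A3, whose mutation causes Bethlem and Ullrich muscle disease. None of these genes passed the test. COL6A3 had 3172 and 3847 CPM in Dox libraries and 3318 and 3272 CPM in DMSO libraries (log2 fold change 0.09, 95% interval -0.15 to 0.33, adjusted p = 0.526). COL6A1 had 649.8 and 921 CPM in Dox libraries and 679 and 682 CPM in DMSO libraries (0.21, 95% interval -0.17 to 0.58, adjusted p = 0.358). COL6A2 had 726 and 1155 CPM in Dox libraries and 1031 and 1039.5 CPM in DMSO libraries (-0.14, 95% interval -0.62 to 0.34, adjusted p = 0.633). For each chain the DMSO libraries lay between Dox replicate 1 and Dox replicate 2. COL6A5 had 7 and 7 counts in Dox libraries and COL6A6 had 9 and 9, against 0 in both DMSO libraries for each, and neither was tested.

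The type VIII chains moved in opposite directions. Type VIII is a short-chain collagen that forms sheets, best known from the Descemet membrane of the cornea and from vessel walls. COL8A1 (chr3:99638475-99799226, plus strand) had 1533 and 1633 CPM in Dox libraries, against 1017 and 996 CPM in DMSO libraries. COL8A1 rose by 0.65 on the log2 scale (SE 0.07, adjusted p = 0.0014). COL8A2 (chr1:36095236-36125220, minus strand), which is mutated in a corneal dystrophy, had 31.4 and 39.8 CPM in Dox libraries, against 70.8 and 72.0 CPM in DMSO libraries. It fell by 1.00 (SE 0.12, adjusted p = 0.00181). Neither gene's groups overlapped, and COL8A1 was the only collagen above 10 TPM that rose.

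COL15A1 encodes a multiplexin, a basement membrane collagen with interrupted helices that carries sugar chains. It showed the largest fall among collagens of at least 1 TPM, with 119.7 and 148 CPM in Dox libraries, against 581 and 581 CPM in DMSO libraries. It fell by 2.12 (SE 0.11, adjusted p = 0.000137), a level 4.34-fold higher in DMSO, and it passed in every fit run, limma on TPM included. The other multiplexin, COL18A1, from which endostatin is cut, had 42.8 and 64.7 CPM in Dox libraries and 60.5 and 61.5 CPM in DMSO libraries. COL18A1 did not pass (log2 fold change -0.18, SE 0.18, adjusted p = 0.481), with overlapping groups, but it passed as lower with the GC offset (adjusted p = 0.0145, over the alternatives up to 1.0). COL13A1 encodes a transmembrane collagen of cell adhesion sites and the neuromuscular junction. It had 13.2 and 14.6 CPM in Dox libraries, against 5.68 and 6.10 CPM in DMSO libraries, and rose by 1.24 (SE 0.11, adjusted p = 0.000732). COL15A1 lies on chr9:98943179-99070792 and COL13A1 on chr10:69801867-69964275, both on the plus strand. Their RefSeq sequences are shown as the collagens of at least 1 TPM with the largest fall and the largest rise (GRCh38.p14, plus strand, chr9:98943657-98943906 and chr10:69801656-69801905, capitals as above).
COL15A1: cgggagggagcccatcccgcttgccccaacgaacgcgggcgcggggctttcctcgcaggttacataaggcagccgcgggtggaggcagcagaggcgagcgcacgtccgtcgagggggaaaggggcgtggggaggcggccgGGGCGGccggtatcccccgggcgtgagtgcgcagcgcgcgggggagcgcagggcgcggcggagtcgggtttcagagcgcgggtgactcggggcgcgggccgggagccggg
COL13A1: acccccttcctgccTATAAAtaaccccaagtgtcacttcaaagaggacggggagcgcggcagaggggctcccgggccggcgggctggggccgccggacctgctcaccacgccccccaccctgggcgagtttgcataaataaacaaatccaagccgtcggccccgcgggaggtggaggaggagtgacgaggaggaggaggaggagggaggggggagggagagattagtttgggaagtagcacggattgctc
The COL15A1 window is 76.8% G and C and holds 1 GC box, and the COL13A1 window is 64.0% G and C and holds 1 TATA box.

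COL7A1 forms the anchoring fibrils of skin and is mutated in dystrophic epidermolysis bullosa. It had 96.5 and 147 CPM in Dox libraries and 122 and 117 CPM in DMSO libraries and did not pass (log2 fold change 0.03, 95% interval -0.41 to 0.47, adjusted p = 0.925). Its DMSO libraries lay between the Dox libraries. Among the other collagens under 1 TPM, COL26A1 had counts of 16 and 22 in Dox libraries, against 102 and 114 in DMSO libraries, and fell by 2.49 (SE 0.23, adjusted p = 0.000782). COL10A1, the collagen of hypertrophic cartilage, had counts of 38 and 54 in Dox libraries and 3 and 8 in DMSO libraries and rose by 3.04 (SE 0.42, adjusted p = 0.00358). It lies within NT5DC1, a gene on the opposite strand with 25.8 times its mean count, so its value is uncertain. COL10A1, like COL17A1, COL25A1 and COL28A1 below, entered the test only through the Dox libraries, so these fold changes do not show a direction. The 6 chondrocyte markers summed to 7.53 and 6.75 CPM in Dox libraries, against 20.1 and 20.6 CPM in DMSO libraries, with CHAD at 0 counts in all 4. ACAN had the largest part in the lower sum, with 0.982 and 1.68 CPM in Dox libraries, against 14.3 and 15.1 CPM in DMSO libraries. MATN3 was lower too, with 2.41 and 1.90 CPM in Dox libraries, against 4.53 and 4.18 CPM in DMSO libraries. SOX9 was higher, with 3.60 and 2.54 CPM in Dox libraries, against 0.911 and 1.00 CPM in DMSO libraries. SNORC was higher in Dox libraries as well, and the part of such cells in COL10A1 was not tested. COL17A1, a hemidesmosome collagen of keratinocytes, had counts of 16 and 15 in Dox libraries and 2 and 5 in DMSO libraries (2.12, SE 0.49, adjusted p = 0.0208). COL28A1 had counts of 10 and 13 in Dox libraries and 2 and 2 in DMSO libraries (2.46, SE 0.52, adjusted p = 0.016). Both lost their call when either DMSO library was left out. The 5 keratinocyte markers summed to 12.6 and 10.9 CPM in Dox libraries and 10.3 and 10.2 CPM in DMSO libraries, nearly all of it KRT10, with KRT5 and KRT1 at 0 counts in all 4, and their part in COL17A1 was not tested. COL25A1, a transmembrane collagen of neurons, had counts of 24 and 13 in Dox libraries and 2 and 10 in DMSO libraries and did not pass (adjusted p = 0.107), and COL23A1 had at most 1 count in any library.

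The make-up of the collagen transcripts was compared as shares of summed collagen TPM, in which the total of each library cancels. Type I made up 58.6% and 58.6% of it in Dox libraries, against 56.8% and 56.9% in DMSO libraries. All fibrillar genes together took 68.6% and 69.1% in Dox libraries and 69.7% and 69.8% in DMSO libraries. Type I thus took slightly more, and the fibrillar genes as a whole slightly less, in Dox libraries. The basement membrane share was 3.01% and 3.08% in Dox libraries, against 4.97% and 4.96% in DMSO libraries, and the FACIT share was 9.35% and 7.90% in Dox libraries, against 10.9% and 10.8% in DMSO libraries. The share of the other collagens was 19.1% and 19.9% in Dox libraries, against 14.5% and 14.5% in DMSO libraries. The groups did not overlap for any class share, and the exact permutation test over libraries gave p = 0.333 two-sided for each, the smallest that 2 against 2 allows. By TPM, COL8A1 had rank 5 and rank 7 in the Dox libraries and rank 9 in both DMSO libraries. COL6A3 had rank 4 in both Dox libraries and rank 5 in both DMSO libraries, and COL3A1 had ranks 6 and 5 in the Dox libraries and rank 4 in both DMSO libraries.

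**Figure D3:**
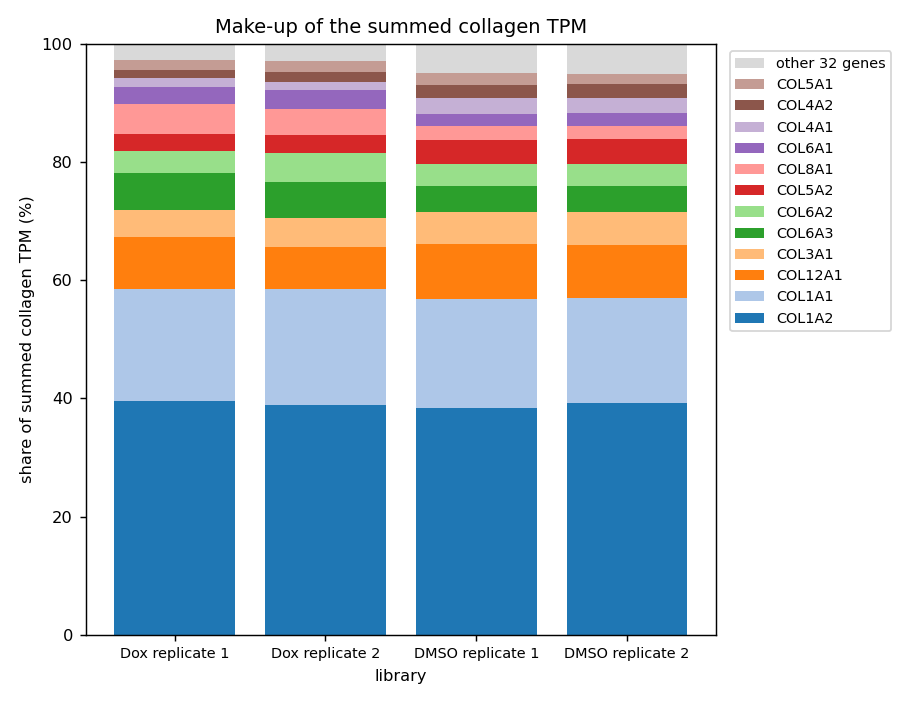
Share of summed collagen TPM (%) of the 12 most abundant collagen genes and of the other 32 together, as a stacked bar for each Dox and DMSO library. COL1A2 and COL1A1 take 58.6% in each Dox bar, against 56.8% and 56.9% in the DMSO bars, and COL8A1, COL6A3 and COL6A1 are wider in the Dox bars while COL5A2, COL4A1 and COL4A2 are narrower.

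Summed collagen TPM itself was 1580 and 3066 in Dox libraries, against 2558 and 2592 in DMSO libraries, so the groups overlapped (exact permutation p = 1.0). TPM totals were dominated by short RNAs: RN7SL1 and RN7SL2 together held 33.0% and 42.3% of all TPM in Dox libraries and 43.9% and 43.8% in DMSO libraries. Protein-coding genes held 9.11% and 14.9% of TPM in Dox libraries, against 10.4% and 10.8% in DMSO libraries. Rescaled over protein-coding genes, a choice made after seeing the data, summed collagen TPM was 17345 and 20544 in Dox libraries, against 24517 and 23912 in DMSO libraries, and in scaled counts the sum was 30221 and 37623 CPM in Dox libraries, against 45041 and 44332 CPM in DMSO libraries. The groups did not overlap on either of these scales. With only the RN7SL and mitochondrial genes taken out of the total, the sum was 2378 and 5375 TPM in Dox libraries, against 4581 and 4636 TPM in DMSO libraries, and the groups still overlapped.

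Ratios between chains of the same collagen type were taken within each library, and so was that of COL3A1 to COL1A1, chains of 2 types that run together in skin. COL1A1 to COL1A2 was 0.482 and 0.506 in Dox libraries, against 0.479 and 0.452 in DMSO libraries, a 1.06-fold difference. COL3A1 to COL1A1 was 0.248 and 0.254 in Dox libraries, against 0.298 and 0.312 in DMSO libraries. COL5A1 to COL5A2 was 0.562 and 0.632 in Dox libraries, against 0.458 and 0.432 in DMSO libraries. The type I ratio thus moved least of these 3, and the type V ratio was 1.34-fold higher in Dox. COL4A1 to COL4A2 was 1.05 and 0.844 in Dox libraries, against 1.22 and 1.21 in DMSO libraries. COL6A1 to COL6A2 was 0.780 and 0.666 in Dox libraries, against 0.576 and 0.566 in DMSO libraries, and COL6A3 to COL6A1 overlapped between the groups. COL8A1 to COL8A2 differed most, at 44.2 and 36.8 in Dox libraries, against 12.6 and 12.0 in DMSO libraries, a 3.29-fold difference. Each ratio without overlap gave an exact permutation p = 0.333, the smallest possible, and COL6A3 to COL6A1 gave p = 1.0. No ratio of COL4A5 to COL4A6 was computed, because COL4A6 is listed at 0 TPM in 1 library.

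**Figure D4:**
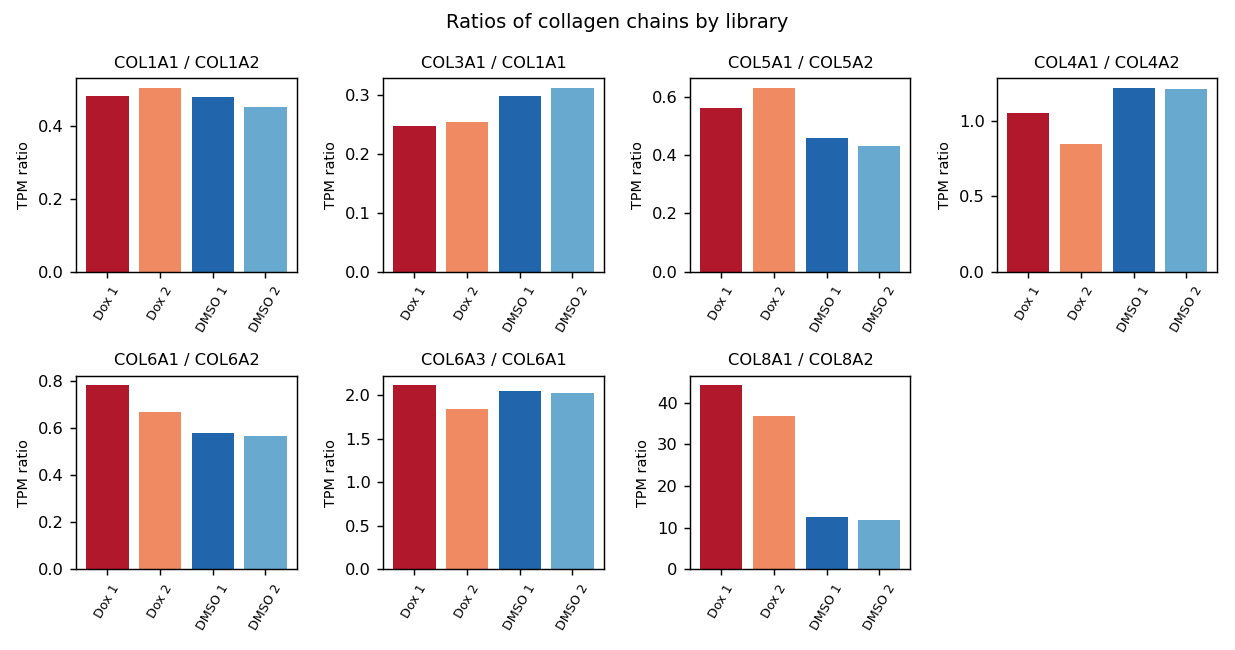
TPM ratios of 7 pairs of collagen chains, a panel for each pair and a bar for each library, with Dox left of DMSO and each axis starting at 0. The COL8A1 to COL8A2 bars stand at 44.2 and 36.8 in Dox libraries and at 12.6 and 12.0 in DMSO libraries, and in the COL6A3 to COL6A1 panel the groups overlap.

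How far the collagen results rest on a single library was read by leaving each out. Without Dox replicate 1, 16 collagens were higher and 14 lower of 36 tested, and 52.7% of all genes passed. Without Dox replicate 2, 11 were higher and 17 lower of 34, with 56.2% of all genes passing. Without DMSO replicate 1 the counts were 6 higher and 11 lower of 37 (14.9% of all genes), and without DMSO replicate 2 they were 8 higher and 11 lower of 36 (13.6% of all genes). In each such fit the lone library is assumed to vary like the other group. Without a Dox library the only spread is that of the DMSO pair, which is far tighter, so passing there is no sign of stability. All 12 calls among collagens of at least 1 TPM kept their direction in the 4 fits, and they passed in both fits without a DMSO library, where the spread is that of the Dox pair. The COL6A1, COL6A2, COL6A3, COL7A1, COL18A1 and COL4A5 fold changes, none of which passed in the fit of all libraries, changed sign with the Dox library used. By DESeq2, 6 collagens were higher and 14 lower, with 22.7% of all genes passing, and COL1A1, COL1A2 and COL5A1 were among those lower. In edgeR's test against a 1.5-fold change, 4 were higher and 8 lower (7.56% of all genes). Of the collagens of at least 1 TPM called in the reported fit, COL3A1, COL4A2, COL8A1 and COL12A1 did not pass there. limma on log2(TPM + 1) and on log2(TPM + 0.1) called COL15A1 alone of 24 collagens tested, as 3.66% and 3.79% of all genes passed.

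The Dox libraries differed from each other along the GC content of transcripts. All 22 collagens of at least 1 TPM were lower in Dox replicate 1 than in Dox replicate 2, with a median log2 difference of -0.36, whereas 8499 of 16680 genes in all were lower there. Across genes, which are not independent replicates and share the same libraries, transcript GC content had a Spearman correlation of -0.71 with that difference over the 22 collagens, -0.27 over the 35 tested and -0.58 over all genes, against -0.02 over all genes in the DMSO pair. Median transcript GC content was 56.7% in the 22 collagens and 51.5% in the 35, against 49.2% over all genes. The transcript length that the quantifier assigned also differed without overlap between the groups for 11 of the 22, and for 36.6% of all tested genes of at least 1 TPM, which touches TPM but not CPM. The part of GC content and length in the fold changes was not tested beyond the GC offset.

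**Figure D5:**
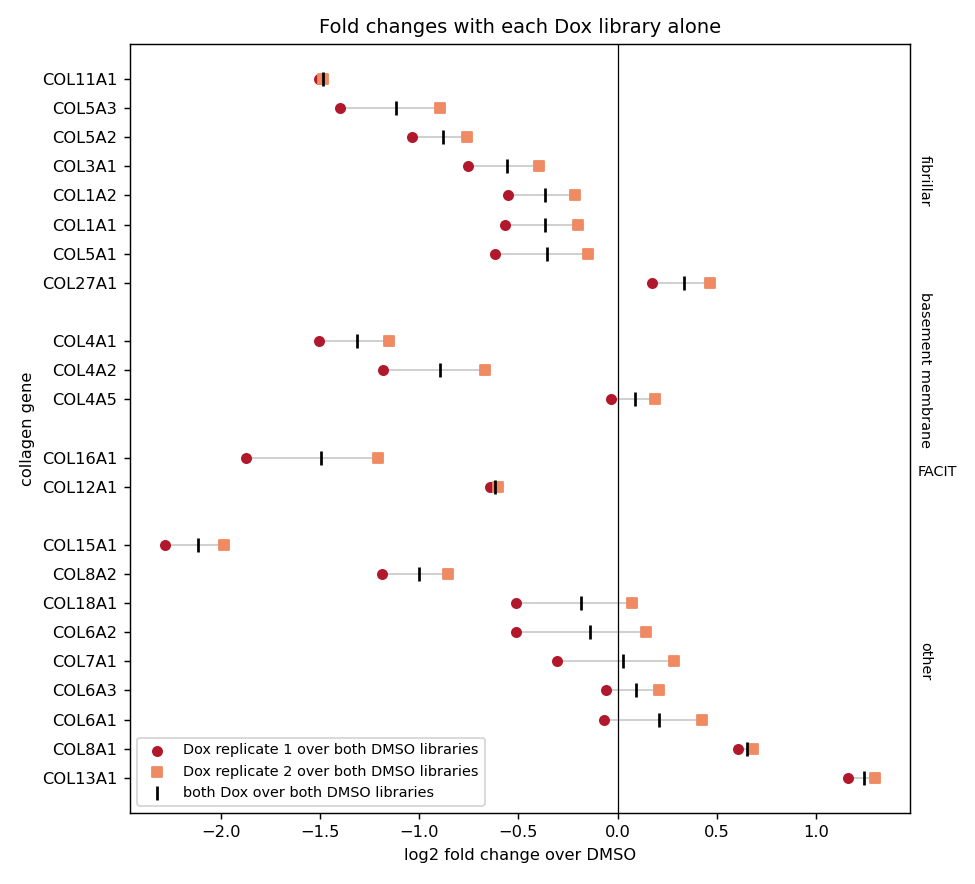
Log2 fold changes of the 22 collagen genes of at least 1 TPM with each Dox library alone over both DMSO libraries, with a bar for the fit of all 4 libraries. COL11A1, COL12A1 and COL8A1 stand at nearly the same place with either library, while COL6A2, COL7A1 and COL18A1 lie on opposite sides of 0.

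The genes that make, export, trim, bind and break down collagens were counted in 7 lists of 109 genes, beside the 16.5% of all tested genes that were higher and the 13.8% that were lower. Of 20 genes for chain modification and folding, 7 rose, 2 fell and 11 did not pass, with a median log2 fold change of 0.29, against -0.00 over all genes. PLOD2, a lysyl hydroxylase of cross-link sites, had 632 and 575 CPM in Dox libraries, against 287 and 283 CPM in DMSO libraries, and rose by 1.08 (SE 0.08, adjusted p = 0.000381). P3H2, a prolyl 3-hydroxylase that acts on type IV collagen, had 24.9 and 27.7 CPM in Dox libraries, against 7.19 and 7.36 CPM in DMSO libraries, and rose by 1.85 (SE 0.10, adjusted p = 0.000137). SERPINH1, the collagen chaperone HSP47, had 414 and 537 CPM in Dox libraries, against 953 and 948 CPM in DMSO libraries, and fell by 1.00 (SE 0.13, adjusted p = 0.00257), and SPARC, a collagen-binding matrix protein, fell by 0.58 (SE 0.06, adjusted p = 0.0012). These genes were named for their small adjusted p and do not stand for the list. Of 13 export genes, 2 rose and 11 did not pass (median 0.03); the rises were CREB3L1, a transcription factor of secretory cells (1.07, SE 0.08, adjusted p = 0.000383), and HSP90B1, a chaperone of the endoplasmic reticulum (0.83, SE 0.07, adjusted p = 0.000606).

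Of 13 tested genes for propeptide removal and cross-linking, 7 rose, 4 fell and 2 did not pass (median 0.51). LOXL4, a lysyl oxidase, had 629.9 and 776 CPM in Dox libraries, against 228 and 226 CPM in DMSO libraries, and rose by 1.63 (SE 0.11, adjusted p = 0.000302). TLL1, a proteinase that trims the C-terminal propeptide, rose by 2.65 (SE 0.22, adjusted p = 0.000564), whereas the N-propeptidases ADAMTS2 (-0.99, SE 0.12, adjusted p = 0.00192) and ADAMTS3 (-0.72, SE 0.10, adjusted p = 0.00339) fell. Among 8 tested receptors, 2 rose, 2 fell and 4 did not pass. The collagen-binding integrin chain ITGA11 had 186 and 202 CPM in Dox libraries, against 848 and 829 CPM in DMSO libraries, and fell by 2.11 (SE 0.08, adjusted p = 7.02e-05), and ITGA1 fell by 1.07 (SE 0.08, adjusted p = 0.000397). ITGA2, which pairs with the same beta chain, had 38.8 and 36.5 CPM in Dox libraries, against 10.2 and 9.43 CPM in DMSO libraries, and rose by 1.94 (SE 0.09, adjusted p = 0.000104), and CD44 rose by 1.17 (SE 0.11, adjusted p = 0.000862). The integrin chains that bind collagen thus did not move as a group.

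Of 11 tested degradation genes, 7 rose, none fell and 4 did not pass (median 0.53). MMP1, the interstitial collagenase that cuts types I and III, had 138 and 133 CPM in Dox libraries, against 18.7 and 19.7 CPM in DMSO libraries, with no overlap (adjusted p = 4.35e-05). CTSK, the lysosomal collagenase cathepsin K, rose by 1.12 (SE 0.07, adjusted p = 0.000233). Of 10 tested proteins that bind fibrils, 4 rose, 3 fell and 3 did not pass. ABI3BP had 109 and 74.6 CPM in Dox libraries, against 4.62 and 4.59 CPM in DMSO libraries, and rose by 4.32 (SE 0.21, adjusted p = 0.000104), and PRELP rose by 0.96 (SE 0.10, adjusted p = 0.00122). ASPN and DPT, small matrix proteins that bind fibrils, fell by 2.53 (SE 0.08, adjusted p = 5.25e-05) and 3.09 (SE 0.20, adjusted p = 0.00025). Of 22 tested regulators of collagen transcription, 4 rose, 6 fell and 12 did not pass (median -0.03). SMAD3, which carries the transforming growth factor beta signal, rose by 0.76 (SE 0.07, adjusted p = 0.000879), as did the receptor TGFBR2 by 0.55 (SE 0.09, adjusted p = 0.00721). SMAD7, which inhibits that signal, fell by 0.87 (SE 0.11, adjusted p = 0.00225), and CCN2, a target of it, fell by 0.64 (SE 0.07, adjusted p = 0.00153).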

How the data were processed

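The 4 libraries were grouped by the treatment in their labels, 2 Dox and 2 DMSO, and compared without further terms. The submitters' processing notes name hg38 as the build and list RSEM, STAR, cutadapt and Picard; no version, annotation release or strand setting is given in the sources used here. The deposited expected counts are estimated fragments per gene, per the file headers, and were rounded to whole numbers. The deposited TPM and FPKM values, named so per the file headers, are scaled by transcript length; FPKM entered only as an alternative to TPM. Genes were kept by edgeR's filterByExpr (minimum count 10, minimum total 15, which came to 0.232 CPM in at least 2 libraries), scaled by TMM and fitted with glmQLFit and glmQLFTest, with Benjamini-Hochberg adjustment over all 16749 genes. A standard error is the size of the log2 fold change divided by the square root of F. Detection limits are 3 counts and cover counting error only. Of the gene identifiers, 99.5% matched GENCODE 29, which gave coordinates and transcript GC content. Software was Python 3.11.15, DESeq2 1.42.0, limma 3.58.1 and edgeR 4.0.16 under R 4.3.3, and the fit was tested on simulated data. The simulated libraries all had the same spread and no GC trend, so that test does not cover the wider spread of the Dox pair. Named pathway genes are those with the smallest adjusted p in each direction, at most 2 per list. The family, its classes and the lists were chosen with earlier results of these data known. No label gives a batch or date.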

Additional observations from a re-analysis of the deposited data

How the results depend on the processing

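The numbers of collagens higher and lower in Dox were 10 and 11 in the fit as reported. They became 6 and 14 with DESeq2, 4 and 8 in the test against a 1.5-fold change, and 0 and 1 with limma on either TPM pseudocount; leaving out 1 library gave 6 to 16 higher and 11 to 17 lower. Same-numbered libraries hardly deviated together (correlation 0.0383), so the numbers are not taken to pair them, and with a replicate block 11 were higher and 14 lower. With the GC offset 11 were higher and 15 lower. The share of all genes passing with the block or with the offset was not counted, so the larger collagen counts there cannot be set against it. The pathway counts of 33 higher and 17 lower became 5 and 3 with limma on either pseudocount and 15 and 8 against a 1.5-fold change, and 21 to 49 and 14 to 35 with a library left out. With CPM in place of TPM, the log2 difference of COL1A1 to COL1A2 was -0.00127 (0.0855 with TPM), of COL3A1 to COL1A1 -0.192 (-0.282), of the fibrillar share -0.0342 (-0.0191), of the basement membrane share -0.686 (-0.705) and of the other share 0.463 (0.430). Collagen fold changes that reversed were all among those that did not pass. COL7A1 was -0.0076 without a filter, -0.0028 with the replicate block, -0.0143 with the GC offset, -0.0187 with both, and -0.307 to 0.285 with a library left out. With a library left out, COL6A1 ran from -0.0683 to 0.424, COL6A2 from -0.513 to 0.145, COL6A3 from -0.0563 to 0.211, COL18A1 from -0.513 to 0.0712, COL4A5 from -0.0322 to 0.187 and COL21A1 from -0.468 to 0.234. Over 431 collagen values under the alternatives, 333 kept direction and side of the threshold, 46 no longer passed, 40 newly passed and 12 reversed; the cause was not tested. Over the genes shared with the reported fit, whose median log2 fold change was -0.00, limma with a pseudocount of 0.1 had a median of 0.12, and no other alternative had a median beyond 0.1. With 2 libraries a group, permutation cannot go below p = 0.333.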
